A study of Homo sapiens with 3 samples.

Results

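An adriamycin-resistant line of MM468 was compared with the MM468 cells it was derived from. MM468 is the MDA-MB-468 line, epithelial cells of a triple-negative breast cancer (TNBC), with a genotype that the labels give as wild type in every group. Parental cells were untreated, and adriamycin-resistant cells are those that survived exposure to adriamycin at 10 to 140 nmol/L. The sources used here do not state whether the drug was present at harvest or whether the surviving cells came from a single clone. The poly(A) RNA of each line went into a single library. Differences therefore have no replicate check, no p-value is given, and line, drug history and library cannot be told apart. These were 2 of the 3 libraries of the experiment. The third was made from paclitaxel-resistant cells, which survived paclitaxel at 2 to 320 nmol/L, and its counts are set beside some genes. Both resistant lines were compared with the same parental library. The sequencing depth was 32704885 counts for the parental line and 47567927 for adriamycin-resistant cells. It was 43242628 for paclitaxel-resistant cells, whose counts are given unscaled. Of the 46427 genes in the table, 17950 had 10 or more counts in the parental or the adriamycin-resistant library and were compared.

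Adriamycin (doxorubicin) is an anthracycline. It inserts between DNA bases and traps topoisomerase II on cut DNA, which leaves double-strand breaks. Cells are known to lower their exposure to it by pumping it out through ABCB1 (P-glycoprotein), a transporter of the plasma membrane that also carries taxanes and eribulin, or by reducing it with carbonyl and aldo-keto reductases. The aryl hydrocarbon receptor (AhR) is a ligand-activated transcription factor that binds DNA with ARNT and switches on CYP1A1, CYP1B1 and other genes of foreign-compound metabolism.

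Both libraries carried the profile of the labelled cells. EGFR, the growth factor receptor that MM468 cells are known to overproduce, was covered by 166693 parental and 270028 adriamycin-resistant counts, a log2 fold change of 0.14. None of the 6 epithelial markers (EPCAM, CDH1, KRT7, KRT8, KRT18 and KRT19) differed by 2-fold, and their median log2 fold change was 0.21. ESR1, the oestrogen receptor, had 152 counts in the parental library and 335 in adriamycin-resistant cells. ERBB2 had 2204 and 3597 counts, which is a log2 fold change of 0.15. PGR was not among the genes compared. Of 6 fibroblast markers only COL1A1 and PDGFRA were compared. COL1A1 had 659 counts in parental and 1629 in adriamycin-resistant cells. PDGFRA, a growth factor receptor, went the other way with 152 against 12. Of 4 leukocyte markers, CD14 had 755 counts in parental and 94 in adriamycin-resistant cells and PTPRC had 24 and 0. The part of other cells in any difference was not tested.

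Most genes differed little between the lines. The median log2 fold change was 0.02, and 13943 genes (77.7%) lay within 2-fold. Past 2-fold, 1963 genes (10.9%) were higher and 2044 (11.4%) lower in adriamycin-resistant cells than in parental cells, 22.3% in all. Protein-coding genes made up 1216 of the higher and 1398 of the lower genes. These shares are the background for every gene list described here. For a gene that reached 10 counts in 1 library alone, the count minimum itself leans the comparison toward that library. This held for 1535 genes through the resistant library (1050 of them higher) and 602 through the parental (569 lower), and of the 15813 genes that reached it in both, 913 were higher and 1475 lower. The 95% interval given with a fold comes from the binomial distribution of the paired counts after scaling by TMM, edgeR's trimmed mean of M-values (exact), and it covers counting error only. The whole interval, or for a gene with 0 counts in a library its bound as given below, lay past 2-fold for 1131 higher and 1199 lower genes. The share of genes past 2-fold was larger at low counts, and the part of depth in this was not tested. Of the 4823 genes whose larger count was 10 or more but under 100, 44.6% were past 2-fold. The share was 22.4% of the 4852 genes from there to under 1000 counts and 9.27% of the 8275 genes with 1000 or more. Among the latter, 260 were higher and 507 lower. The largest differences leaned the other way. For each gene the end of its interval nearest to no change was taken, or its bound where a library had 0 counts. By this measure 16-fold was reached by 108 higher and 58 lower genes, and at 64-fold the numbers were 29 and 9. The part of depth in these numbers was not tested. A gene with 0 counts in a library has no ratio, and its fold is given as a bound against 3 counts, which is a CPM (the count relative to the depth of the TMM-scaled library) of 0.0923 in parental and 0.0627 in adriamycin-resistant cells.

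**Figure D1:**
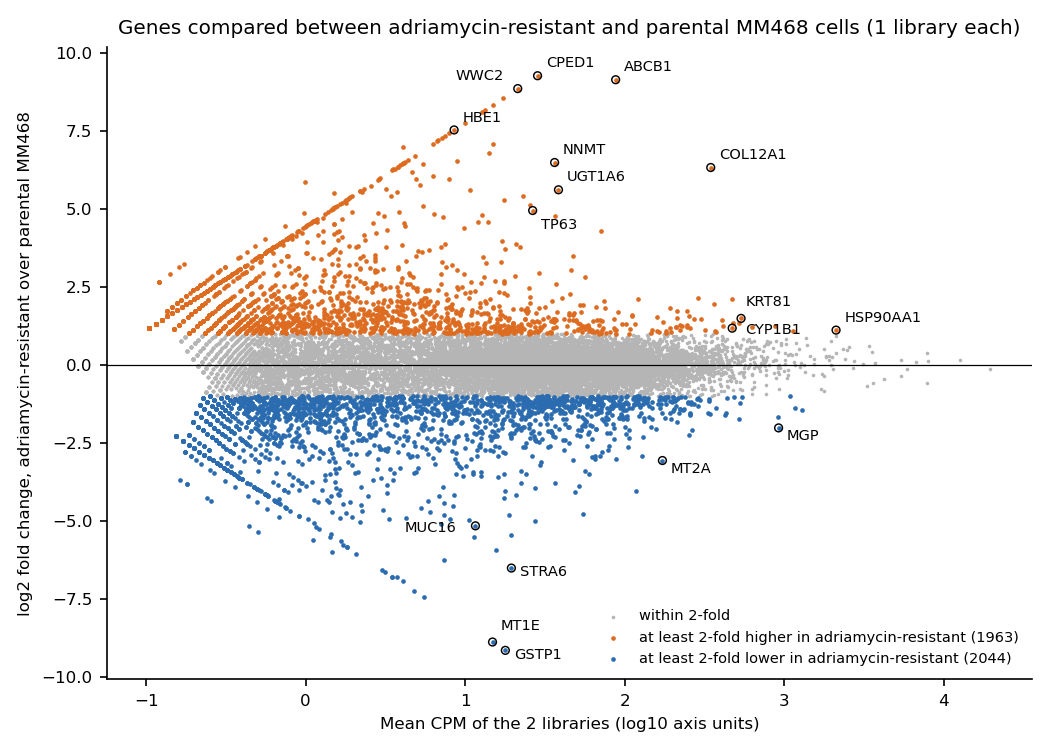
Each point is 1 of the 17950 genes compared, with its mean CPM in the libraries on the x axis (log10) and its log2 fold change in adriamycin-resistant cells over parental MM468 on the y axis. Genes with 0 counts in a library are drawn at their bound against 3 counts. ABCB1, CPED1 and WWC2 lie at the top, GSTP1 and MT1E at the bottom, and the 1963 higher and 2044 lower genes are spread over all levels, with most of the large differences at low CPM.

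ABCB1 was close to silent in parental cells and abundant in adriamycin-resistant cells. Its counts were 10 in the parental line, 8374 in adriamycin-resistant cells and 8171 in paclitaxel-resistant cells. In TPM, which corrects for transcript length and depth, this was 0.124 against 71.5. The fold of adriamycin-resistant cells over parental was 569 (95% interval 309 to 1190). In RefSeq ABCB1 lies on the minus strand of chromosome 7, at chr7:87503017-87713295 of GRCh38.

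Some genes beside ABCB1 were past 2-fold too. ABCB4, the neighbouring phospholipid transporter, had 0 counts in parental and 57 in adriamycin-resistant cells, at least 12.9-fold higher. RUNDC3B runs on the other strand and overlaps ABCB1 in part. It had 26 and 435 counts, 11.4-fold higher (7.65 to 17.6). Whether reads from overlapping ABCB1 transcripts were counted there cannot be told from the table. CROT, a peroxisomal carnitine acyltransferase, was 2.46-fold higher (2.21 to 2.75) and the noncoding RNA TP53TG1 2.52-fold (1.85 to 3.49). Other genes nearby had log2 fold changes of 0.30 for TMEM243, 0.31 for SLC25A40, 0.75 for DBF4, 0.47 for ADAM22 and 0.75 for SRI. LOC105375384 had 0 counts in parental, 23 in adriamycin-resistant cells and 66 in paclitaxel-resistant cells. Like ABCB4, it was compared only for its counts in the resistant library. Of the 11 neighbours compared from the gene list, which leaves LOC105375384 out, 4 were at least 2-fold higher and none was lower. The other 7 lay within 2-fold, and the median was 0.75.

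Some other ABC transporters were past 2-fold as well. The family of 36 genes compared, ABCB1 among them, had a median log2 fold change of 0.56, with 10 members past 2-fold on the higher side and 2 on the lower. Of the 10, 5 reached the count minimum through the resistant library alone. ABCG2, an efflux pump that carries anthracyclines, had 0 counts in parental, 162 in adriamycin-resistant cells and 28 in paclitaxel-resistant cells, which in adriamycin-resistant cells is at least 36.7-fold higher. ABCC3, an exporter of conjugates, had 2646 and 11255 counts (2.89-fold, 2.77 to 3.02). ABCA5, a lipid transporter, was 3.78-fold higher (3.49 to 4.10), and ABCA12, the ceramide carrier of skin, 2.45-fold (2.16 to 2.77). ABCC3 and ABCA5 lie on chromosome 17, where the median of all genes was above 0. All 3 transporters compared there were higher, against 7 of 33 elsewhere. ABCC11 had 7 counts in parental, 23 in adriamycin-resistant cells and 62 in paclitaxel-resistant cells, and the interval of its 2.23-fold difference in adriamycin-resistant cells ran from 0.927 to 6.16. Counts of ABCC1, the first multidrug resistance protein, were 1406 and 2399, a log2 fold change of 0.21. The lower members were ABCC4, an exporter of cyclic nucleotides (811 and 266 counts, 4.49-fold lower, 3.90 to 5.17), and the peptide transporter TAP1 (3010 and 1415 counts, 3.13-fold lower, 2.94 to 3.34). Among 12 drug uptake carriers 2 were higher and 2 lower. SLC28A3, a concentrative nucleoside transporter, had 997 counts in parental, 24 in adriamycin-resistant cells and 110 in paclitaxel-resistant cells, 61.1-fold lower in adriamycin-resistant cells (40.9 to 95.9).

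Enzymes that can reduce anthracyclines or other carbonyls were higher in part. Of 16 compared, 5 were at least 2-fold higher and none lower, while the median was 0.07. AKR1C3, an aldo-keto reductase that also acts on steroids and prostaglandins, had 153 counts in parental and 1445 in adriamycin-resistant cells (6.42-fold, 5.43 to 7.63). AKR1B1, the aldose reductase, had 4918 and 27661 (3.82-fold, 3.71 to 3.94). AKR1B10 had 326 and 3913, 8.16-fold higher (7.28 to 9.16), and had 129 in paclitaxel-resistant cells. AOX1 and XDH are the molybdenum-containing oxidases of the list. AOX1, aldehyde oxidase, had 34 counts in parental, 2150 in adriamycin-resistant cells and 76 in paclitaxel-resistant cells, 43.0-fold higher in adriamycin-resistant cells (30.6 to 62.2). XDH, xanthine dehydrogenase, was 4.87-fold higher (4.44 to 5.36). The carbonyl reductases CBR1 and CBR3 were within 2-fold, at log2 fold changes of 0.08 and -0.95.

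UGT1A genes, whose enzymes attach glucuronic acid to foreign compounds, had few counts or none in parental cells. Of 9 on the list, 8 had 0 parental counts and 5 were compared. Of these 5, 4 reached the count minimum through the resistant library alone and could only be higher. UGT1A6 had 50 counts in parental, 3602 in adriamycin-resistant cells and 1691 in paclitaxel-resistant cells, 48.9-fold higher in adriamycin-resistant cells (37.0 to 66.1). UGT1A7 had 0 counts in parental, 361 in adriamycin-resistant cells and 1 in paclitaxel-resistant cells, and was at least 81.8-fold higher in adriamycin-resistant cells. UGT1A1, the bilirubin enzyme, had 0 and 74, at least 16.8-fold. These genes share their last exons and differ in the first, so the split of reads among them is uncertain.

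AhR target genes went both ways. The receptor gene AHR had 8177 and 10399 counts (log2 fold change -0.21), and its partner ARNT 1662 and 1856 (-0.40). Of 10 genes of the receptor and its partners 2 were higher and none lower. ARNT2, a relative of ARNT, had 25 and 135 counts, 3.67-fold higher (2.38 to 5.87). The chaperone HSP90AA1 was 2.16-fold higher (2.14 to 2.19), with 43363 and 137989 counts, and lies on chromosome 14, where the median of all genes was above 0. CYP1A1, the classical AhR target, had 1432 counts in parental, 925 in adriamycin-resistant cells and 5318 in paclitaxel-resistant cells, 2.28-fold lower in adriamycin-resistant cells (2.10 to 2.48). CYP1A2 was at 26 and 14 counts. CYP1B1 differed in the opposite direction, with 9402 and 31248 counts, 2.26-fold higher (2.21 to 2.31). AHRR, which encodes a repressor of the receptor, had 0 and 14 counts, at least 3.17-fold higher. TIPARP, another target, was near level with 791 and 1234 counts (log2 fold change 0.08), and NQO1 was at -0.69. Of 8 targets compared, UGT1A6 among them, 3 were at least 2-fold higher and 2 lower. AHRR was compared only for its counts in the resistant library, and of the 7 that reached the count minimum in both, 2 were higher and 2 lower. CYP1A1 and UGT1A6 differed in opposite directions, and the 250 bases ahead of their RefSeq starts are shown with GCGTG, the core letters to which AhR and ARNT bind (CACGC on the other strand), in capitals. They lie at chr15:74725529-74725778 (minus strand) and chr2:233691452-233691701 (plus strand) of GRCh38.p14.
CYP1A1: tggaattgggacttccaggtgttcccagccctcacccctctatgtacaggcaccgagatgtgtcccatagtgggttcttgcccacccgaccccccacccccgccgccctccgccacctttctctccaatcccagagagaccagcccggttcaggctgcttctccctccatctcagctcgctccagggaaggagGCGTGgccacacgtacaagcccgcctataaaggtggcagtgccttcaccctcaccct
UGT1A6: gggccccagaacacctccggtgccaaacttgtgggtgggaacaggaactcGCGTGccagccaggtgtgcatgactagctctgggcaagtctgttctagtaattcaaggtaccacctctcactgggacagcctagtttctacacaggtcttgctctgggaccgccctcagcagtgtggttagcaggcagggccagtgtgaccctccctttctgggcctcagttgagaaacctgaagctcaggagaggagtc
Each window holds 1 match, and GENCODE annotates further UGT1A6 starts downstream of this window. The letters were found in 43.3% of all 12946 windows, so a match is a description and not a binding site.

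**Figure D2:**
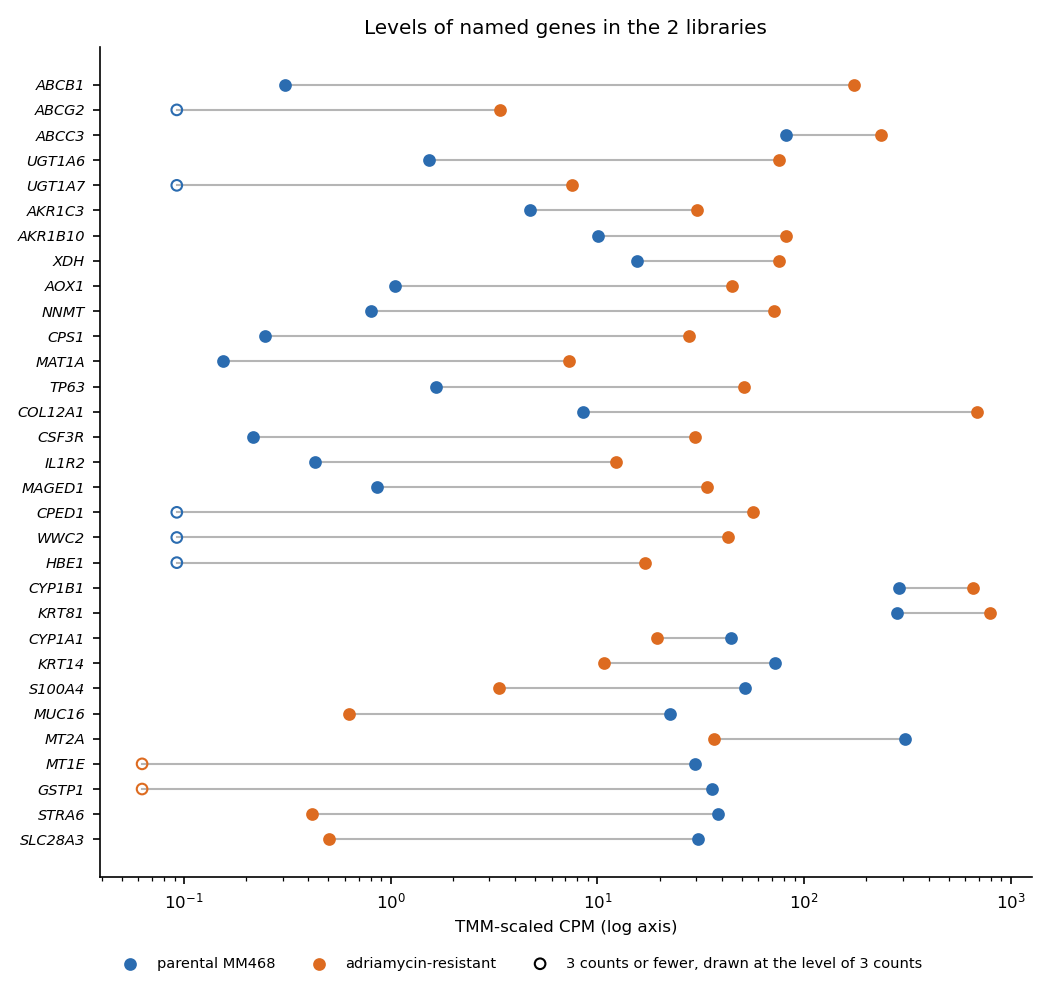
Levels of named genes in parental MM468 (blue) and adriamycin-resistant cells (orange) as TMM-scaled CPM on a log axis, with 1 library per line and a grey line joining the 2 values of a gene. Open circles mark genes with 3 counts or fewer, drawn at the level of 3 counts. ABCB1, COL12A1, CPED1 and WWC2 show long steps to the right in adriamycin-resistant cells, and GSTP1, MT1E, STRA6 and SLC28A3 long steps to the left.

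The drug's own target and the repair of the damage it causes were near level. TOP2A, topoisomerase II alpha, had 10803 and 24041 counts, 1.51-fold higher in adriamycin-resistant cells (1.48 to 1.55). TOP2B had 4244 and 5815 (log2 fold change -0.10) and TOP1 5238 and 6174 (-0.32). None of the 10 topoisomerases and adduct-repair genes reached 2-fold. Among 57 genes of the DNA damage response, 3 were at least 2-fold higher, none was lower and the median was 0.10. The 3 were LIG3, a DNA ligase (2.40-fold, 2.25 to 2.55), ERCC2, a helicase of nucleotide excision repair (2.17-fold, 2.05 to 2.31), and XRCC3, of homologous recombination (2.04-fold, 1.70 to 2.45). LIG3 lies on chromosome 17 and XRCC3 on chromosome 14, where the medians of all genes were above 0. SLFN11, whose loss is known to go with resistance to DNA-damaging drugs, had 1747 and 3221 counts (log2 fold change 0.32).

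A few genes of growth arrest and cell death were past 2-fold. CDKN1A, BTG2 and FAS come from a list of which 23 were compared, with 3 higher, 2 lower, 18 within 2-fold and a median of 0.15, shares near those of all genes. CDKN1A, the p21 cell-cycle inhibitor, had 956 counts in parental and 411 in adriamycin-resistant cells, 3.42-fold lower (3.05 to 3.85), and 1857 in paclitaxel-resistant cells. BTG2, which slows cell division, was 4.72-fold higher (3.42 to 6.67), with 43 and 299 counts, and FAS, a death receptor, 3.03-fold (2.19 to 4.29). Of 28 BCL2 family members and caspases, 2 were higher and 3 lower. The inflammatory caspases CASP1 (3.53-fold, 3.18 to 3.93) and CASP4 (2.66-fold, 2.50 to 2.83) were the higher members. The death-promoting BMF (3.77-fold lower, 3.37 to 4.22) and BIK (3.21-fold, 2.55 to 4.06) and the inhibitor BIRC3 (2.99-fold, 2.71 to 3.30) were the lower members. Proliferation genes were near level. Of 36, MCM3 of the replicative helicase was 2.18-fold lower (2.10 to 2.25) and the others lay within 2-fold, MKI67 at a log2 fold change of -0.25.

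GSTP1 and MT1E were lost from the adriamycin-resistant library. GSTP1, a glutathione transferase that couples drugs and electrophiles to glutathione, had 1160 counts in parental, 0 in adriamycin-resistant cells and 2434 in paclitaxel-resistant cells. This was at least 569-fold lower in adriamycin-resistant cells than in parental cells. Its neighbours on chromosome 11 were near level, with log2 fold changes of -0.07 for CDK2AP2 and 0.29 for NDUFV1. The other 22 glutathione genes compared held 2 higher members and 1 lower, GSTM3 (2.99-fold, 2.85 to 3.15). The higher ones, GSTZ1 (590 and 1834 counts) and GPX2 (0 and 10), are the 2 members on chromosome 14, where the median of all genes was above 0, and GPX2 was compared only for its counts in the resistant library. GSTM3 lies on chromosome 1, where the median was below 0. Metallothioneins are small proteins that bind zinc, copper and cadmium. All 4 of the 11 on the list that were compared were at least 2-fold lower, with a median of -2.74, and they lie side by side on chromosome 16. MT1E had 964 counts in parental, 0 in adriamycin-resistant cells (at least 473-fold lower) and 707 in paclitaxel-resistant cells. MT1E was compared only for its parental counts, and the 3 metallothioneins that reached the count minimum in both libraries were all lower. MT2A, the most abundant of them, had 9999 and 1755 (8.39-fold lower, 7.97 to 8.83). MT1F was 5.37-fold lower (4.06 to 7.17) and MT1X 4.34-fold (3.90 to 4.82). The genes that flank the cluster, BBS2 and NUP93, were at 0.01 and 0.11 on the log2 scale.

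The start regions of GSTP1 and of WWC2, a gene that went the other way, are shown as cases of loss to 0 and gain from 0 counts, with CG pairs, where DNA can be methylated, in capitals. The windows are the 250 bases ahead of the RefSeq starts, at chr11:67583562-67583811 and chr4:183099007-183099256 on the plus strand of GRCh38.p14.
GSTP1: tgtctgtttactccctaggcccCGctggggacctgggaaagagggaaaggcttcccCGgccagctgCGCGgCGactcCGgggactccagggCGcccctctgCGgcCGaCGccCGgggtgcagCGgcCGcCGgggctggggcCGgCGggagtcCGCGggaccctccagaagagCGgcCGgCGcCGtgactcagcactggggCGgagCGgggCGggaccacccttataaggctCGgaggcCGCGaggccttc
WWC2: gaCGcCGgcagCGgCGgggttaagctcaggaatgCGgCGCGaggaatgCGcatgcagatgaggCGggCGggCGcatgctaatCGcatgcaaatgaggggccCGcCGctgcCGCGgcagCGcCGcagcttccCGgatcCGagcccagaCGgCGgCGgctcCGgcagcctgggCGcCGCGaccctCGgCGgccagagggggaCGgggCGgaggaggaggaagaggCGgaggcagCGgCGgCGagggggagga
They hold 28 and 35 CG pairs, against a median of 20 over the 12946 compared genes with such a window. They are not typical of their classes, since the median was 4.5 for genes at 0 counts in adriamycin-resistant cells and 7.5 for genes at 0 in parental cells. DNA methylation was not measured in this experiment.

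Genes that answer to NRF2, the factor of the oxidative stress response, differed for a few members. Of 19, 3 were higher, none lower, and the median was -0.05. HMOX1, haem oxygenase, had 490 and 3168 counts, 4.39-fold higher (3.99 to 4.84), and 399 in paclitaxel-resistant cells. FTL, the ferritin light chain, was 2.85-fold higher (2.75 to 2.96) and TXNRD1, thioredoxin reductase, 2.54-fold (2.48 to 2.60). The ferritin heavy chain FTH1 had 157797 and 171038 counts, a log2 fold change of -0.44.

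Some genes had 0 counts in 1 line and were well counted in the other. With 0 counts in parental, 57 genes had 100 or more in adriamycin-resistant cells, 36 of them protein-coding, and with 0 in adriamycin-resistant cells, 12 had 100 or more in parental, 9 of them protein-coding. The resistant library was the deeper, which favours the first number, and at the CPM of 100 parental counts (3.08) the numbers were 41 and 12. CPED1, named for its cadherin-like and esterase domains, had 2718 counts in adriamycin-resistant cells, at least 616-fold higher, and 4 in paclitaxel-resistant cells. WWC2, a scaffold of the Hippo pathway, had 2042 (at least 462-fold) and 8686 in paclitaxel-resistant cells. KCTD12, an auxiliary subunit of GABA-B receptors, had 1648 (at least 373-fold). The gene of a receptor subunit, GABBR2, fell from 475 counts in parental to 9 in adriamycin-resistant cells (77.7-fold lower, 40.6 to 171), with 599 in paclitaxel-resistant cells. Further genes from 0 included BTNL9, a butyrophilin-like gene (1278 counts, at least 289-fold), MYEF2, a transcriptional repressor (1226, at least 278-fold), and CSTA, a protease inhibitor of squamous epithelium (950, at least 215-fold). GFRA1, the receptor for GDNF, had 760 (at least 172-fold), ZC3H12C, an RNA-binding protein, 639 (at least 145-fold), and NRXN3, a neurexin, 598 (at least 135-fold). In paclitaxel-resistant cells the counts were 2049 for GFRA1 and 2433 for ZC3H12C, but 6 for MYEF2 and 11 for NRXN3.

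HBE1, the embryonic globin gene, was counted in adriamycin-resistant cells alone of the 3 lines. It had 815 counts there and 0 in parental and paclitaxel-resistant cells, at least 185-fold higher than parental. Some of its neighbours on chromosome 11 were also counted in that line alone. They were compared only for their counts in its library and could only be higher. OR51B5, an olfactory receptor gene, had 389 counts in adriamycin-resistant cells (at least 88.1-fold higher), HBG2 and OR51B4 had 14 each and OR51B2 had 13, with 0 for all of them in the other libraries. Next along, TRIM21 and TRIM5 were at log2 fold changes of 0.56 and -0.26. Whether these counts come from transcripts that run through several of these genes was not tested.

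Further genes had 0 or few counts in adriamycin-resistant cells. CADPS2, a regulator of secretory vesicles that lies on the same arm of chromosome 7 as CPED1, had 357 counts in parental, 0 in adriamycin-resistant cells (at least 175-fold lower) and 407 in paclitaxel-resistant cells. ITGBL1, an integrin-like protein, had 225 and 0 (at least 110-fold) and VGLL3, a cofactor of TEAD factors, 196 and 0 (at least 96.2-fold), with 2616 in paclitaxel-resistant cells. POU2AF1, a coactivator best known from B cells, had 135 and 0 (at least 66.2-fold), and VNN1, a pantetheinase, 118 and 0 (at least 57.9-fold). SGCD, a sarcoglycan, had 240 and 3, and the interval of its fold began at 39.8. PLEKHS1 had 719 and 23 (46.0-fold lower, 30.4 to 73.1) and C2orf72 1235 and 41 (44.3-fold, 32.5 to 62.1). The readthrough gene JMJD7-PLA2G4B had 205 and 0 counts and CDRT4 225 and 0. Both share exons with genes that were not lower (JMJD7 0.53, PLA2G4B 1.63 and TVP23C-CDRT4 1.39 on the log2 scale, chosen after their values were seen), so the assignment of their reads is uncertain.

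The retinoid pathway, which takes up vitamin A and turns it into retinoic acid, had more lower than higher members. Of 19 compared, 6 were lower and 3 higher, with a median of -0.42, and 2 of the 3 were compared only for their counts in the resistant library. STRA6, the receptor that takes up retinol, had 1252 counts in parental and 20 in each resistant line, 92.1-fold lower in adriamycin-resistant cells (59.4 to 151). RDH10, the first oxidising enzyme, was 4.27-fold lower (3.97 to 4.60). Higher were ALDH1A1, a retinal dehydrogenase, with 19 and 232 counts (8.30-fold, 5.19 to 14), and CYP26A1, which degrades retinoic acid, with 0 and 27 (at least 6.11-fold).

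NNMT, which methylates nicotinamide at the expense of S-adenosylmethionine, was among the genes furthest up. It had 26 counts in parental, 3438 in adriamycin-resistant cells and 125 in paclitaxel-resistant cells, 89.8-fold higher in adriamycin-resistant cells (61.2 to 138). MAT1A, a liver enzyme that makes S-adenosylmethionine, had 5 and 350 (47.6-fold, 20.2 to 147). KYNU, a kynureninase, was 4.26-fold lower (4.04 to 4.48). The other 20 genes of nicotinamide and methionine metabolism held 1 more higher member, BHMT2, at 6 and 36 counts. MAT1A and BHMT2 were compared only for their counts in the resistant library. NAMPT, which makes NAD from nicotinamide, was at a log2 fold change of -0.25. CPS1, the first enzyme of the urea cycle, had 8 counts in parental, 1333 in adriamycin-resistant cells and 263 in paclitaxel-resistant cells, 113-fold higher in adriamycin-resistant cells (57.3 to 263), and 3 of 13 urea cycle and arginine genes were higher in all. CPS1 and another of these 3 reached the count minimum through the resistant library alone, and of the 11 that reached it in both libraries 1 was higher.

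Most genes of cholesterol and fatty acid synthesis were within 2-fold. Of 33, 5 were lower (15.2%, against 11.4% of all genes) and 2 higher, with a median of -0.47. The regulators SREBF1 (2.32-fold, 2.2 to 2.44) and SREBF2 (2.06-fold, 2.00 to 2.13) were among the lower. ELOVL6, a fatty acid elongase, had 345 and 3061 counts, 6.03-fold higher (5.39 to 6.76). Of 16 steroid enzymes 3 were higher and 5 lower, with a median of 0.12, and 3 of the 5 lie on chromosome 16. Of the 14 that reached the count minimum in both libraries 2 were higher and 4 lower. HSD17B11, a short-chain dehydrogenase, was furthest up, with 42 and 370 counts (5.99-fold, 4.34 to 8.44). HSD17B2, which inactivates oestradiol, had 443 counts in parental, 19 in adriamycin-resistant cells and 477 in paclitaxel-resistant cells, 34.3-fold lower in adriamycin-resistant cells (21.7 to 57.5). SULT1E1, the oestrogen sulphotransferase, had 75 and 0, at least 36.8-fold lower. Glycolysis genes, a list added after the values were seen, were split 3 and 3 of 25. Of the 24 that reached the count minimum in both libraries 2 were higher and 3 lower. SLC2A3, a glucose transporter known from neurons, had 15 and 112 counts (5.07-fold higher, 2.95 to 9.37). SLC2A1, the widely expressed glucose transporter, had 6068 and 2854 counts (3.13-fold lower, 2.99 to 3.27), and SLC16A1, a lactate carrier, was 4.48-fold lower (4.08 to 4.92). Both lie on chromosome 1, where the median of all genes was below 0, and of the 22 glycolysis genes elsewhere 3 were higher and 1 lower.

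TP63 was higher, while more basal genes were lower than higher. TP63 encodes p63, the factor that sets basal and squamous identity, and had 54 counts in parental, 2453 in adriamycin-resistant cells and 553 in paclitaxel-resistant cells, 30.9-fold higher in adriamycin-resistant cells (23.6 to 41.2). Of the 19 basal and squamous genes compared, TP63 was the only higher member, 8 were lower and 10 lay within 2-fold, with a median of -0.76. Chromosome 1, where the median of all genes was below 0, held 2 of the 8. Of the 18 that reached the count minimum in both libraries 1 was higher and 7 lower. KRT14 had 2347 and 515 counts (6.71-fold lower, 6.09 to 7.39), while its partner KRT5 had 23983 and 37417 (log2 fold change 0.08). Of the chains of laminin-332, which anchors basal cells, LAMB3 was 6.07-fold lower (5.20 to 7.09) and LAMA3 4.07-fold (3.28 to 5.08). DSC3, a desmosomal cadherin, was 3.74-fold lower (3.40 to 4.12), and in paclitaxel-resistant cells its counts were 6766 against 1511 in parental. Luminal genes had more lower than higher members. Of 15, 6 were lower and 1 higher, though the median was 0.15. The higher member reached the count minimum through the resistant library alone, and 1 of the 6 lower, KIT, through the parental alone. Of the 13 that reached it in both, 5 were lower and none higher. KIT had 65 and 3 counts, and AGR2, of mucin folding, 1651 and 465 (5.23-fold lower, 4.71 to 5.80). FOXA1 was 2.35-fold lower (2.13 to 2.60) and XBP1 2.75-fold (2.62 to 2.88).

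Mucins, products of secretory and surface epithelium, and S100A proteins leaned lower. Of 5 mucins compared 4 were lower, 1 of them on chromosome 1, and none was higher. MUC16, the CA125 antigen, had 733 and 30 counts (36.0-fold lower, 25 to 53.7), MUC5B 1894 and 459 (6.07-fold, 5.48 to 6.74) and MUC1 5107 and 2417 (3.11-fold, 2.96 to 3.27). Of 15 S100A genes 7 were lower and 1 higher, and all 15 lie on chromosome 1, where the median of all genes was also below 0. Of the 13 that reached the count minimum in both libraries 6 were lower and 1 higher. S100A4 had 1679 counts in parental, 160 in adriamycin-resistant cells and 101 in paclitaxel-resistant cells, 15.4-fold lower in adriamycin-resistant cells (13.1 to 18.3). S100A6, with 11114 and 6116 counts, was 2.67-fold lower (2.59 to 2.76), and S100A8, a neutrophil and keratinocyte protein, 2.70-fold higher (2.47 to 2.94).

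Some clade B serpins and some keratins were higher. Of 11 clade B serpins compared, which inhibit proteases inside cells, 7 were higher and none lower, but 6 of the 7 reached the count minimum through the resistant library alone. The summed CPM of all 13 on the list was 194 in parental and 178 in adriamycin-resistant cells. SERPINB2, the plasminogen activator inhibitor 2, had 6 and 591 counts (66.9-fold, 30.6 to 183), and SERPINB3 had 0 and 126 (at least 28.5-fold). With a minimum of 100 counts the median of the list passed from 1.85 to -0.06. KRT81, a hair keratin known from basal-like breast cancer cells, had 9150 counts in parental, 37763 in adriamycin-resistant cells and 2947 in paclitaxel-resistant cells, 2.80-fold higher in adriamycin-resistant cells (2.74 to 2.87). KRT13, of non-cornified squamous epithelium, had 25 and 327 (8.89-fold, 5.91 to 13.9) and KRT76 0 and 107 (at least 24.2-fold). Of 25 keratins 6 were higher and 2 lower, with a median of -0.03, and KRT14 was lower and KRT5 near level as given above. Of the 25, 10 lie on chromosome 17, where the median of all genes was above 0. KRT76 was among 2 of the 6 that reached the count minimum through the resistant library alone. Of the 23 keratins that reached it in both libraries 4 were higher and 2 lower.

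Junction genes were near level and mesenchymal genes were mixed. Of 27 epithelial junction genes 2 were higher and 2 lower, with a median of 0.03. Of the 26 that reached the count minimum in both libraries 1 was higher and 2 lower. CDH1, E-cadherin, had 3364 and 5744 counts (log2 fold change 0.21), and VIM, vimentin, had 107 and 172 (0.13). Of 20 mesenchymal genes 5 were higher and 5 lower, 2 of the lower ones on chromosome 1. Of the 17 that reached the count minimum in both libraries 3 were higher and 4 lower. AXL, a receptor tyrosine kinase, had 88 and 383 counts, 2.96-fold higher (2.34 to 3.77), and TAGLN, a smooth muscle actin-binding protein, 1036 and 338, 4.51-fold lower (3.99 to 5.12). TGFB2, a growth factor of this programme, was 3.33-fold lower (3.19 to 3.47).

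Matrix genes went both ways. Of 27 collagens 5 were higher and 9 lower, with a median of -0.55, but 2 of the 5 reached the count minimum through the resistant library alone and 4 of the 9 through the parental alone. Of the 21 that reached it in both, 3 were higher and 5 lower, and at a minimum of 100 counts the median was -0.05. COL12A1, which coats the surface of collagen fibrils, had 277 counts in parental, 32669 in adriamycin-resistant cells and 35724 in paclitaxel-resistant cells, 80.1-fold higher in adriamycin-resistant cells (71.2 to 90.5). COL5A1 had 0 and 151 (at least 34.2-fold), and COL26A1 had 3 and 243, an interval that began at 18.6-fold, both compared only for their counts in the resistant library. In the other direction, COL8A1 had 112 and 6 counts (27.5-fold lower, 12.2 to 76.5), compared only for those in the parental library, and COL4A5, of basement membrane, 4620 and 2469 (2.75-fold, 2.62 to 2.89). Integrins and laminins showed 7 higher and 9 lower of 30, with 3 of the 7 compared only for their counts in the resistant library. Chromosome 17 held 2 of the 7 and chromosome 1 held 2 of the 9. ITGA3, a laminin receptor, was 2.43-fold higher (2.35 to 2.51), while ITGA6 (2.35-fold, 2.25 to 2.44) and ITGB6 (4.03-fold, 3.82 to 4.24) were lower. MGP, a matrix protein that blocks calcification, had 47999 and 17388 counts (4.06-fold lower, 3.99 to 4.13).

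Clustered protocadherins, adhesion proteins encoded in a row on chromosome 5, leaned higher. Of 10 alpha genes 7 were higher and none lower, of 15 beta genes 9 and none, and of 22 gamma genes 7 and 2. Of the higher genes, 3 alpha, 7 beta and 1 gamma reached the count minimum through the resistant library alone. Of those that reached it in both libraries, 4 of 7 alpha, 2 of 8 beta and 6 of 21 gamma genes were higher, and 2 gamma genes lower. The medians over all compared members were 1.16, 1.59 and 0.67. At a minimum of 100 counts they were 1.86, 0.76 and 0.78, over 5, 6 and 13 genes. A gene could still reach this minimum through the resistant library alone. At that minimum the genes of chromosome 5 had a median of 0.27. Those from 140 to 150 Mb, where the clusters lie, had a median of 0.56, with 20 of 77 higher. PCDHA11 had 208 and 1113 counts (3.64-fold, 3.13 to 4.24), PCDHB8 10 and 507 (34.4-fold, 18.6 to 72.3) and PCDHB13 7 and 286 (27.8-fold, 13.3 to 69.7). The alpha and gamma genes each share their last exons, so reads there can be split among members.

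**Figure D3:**
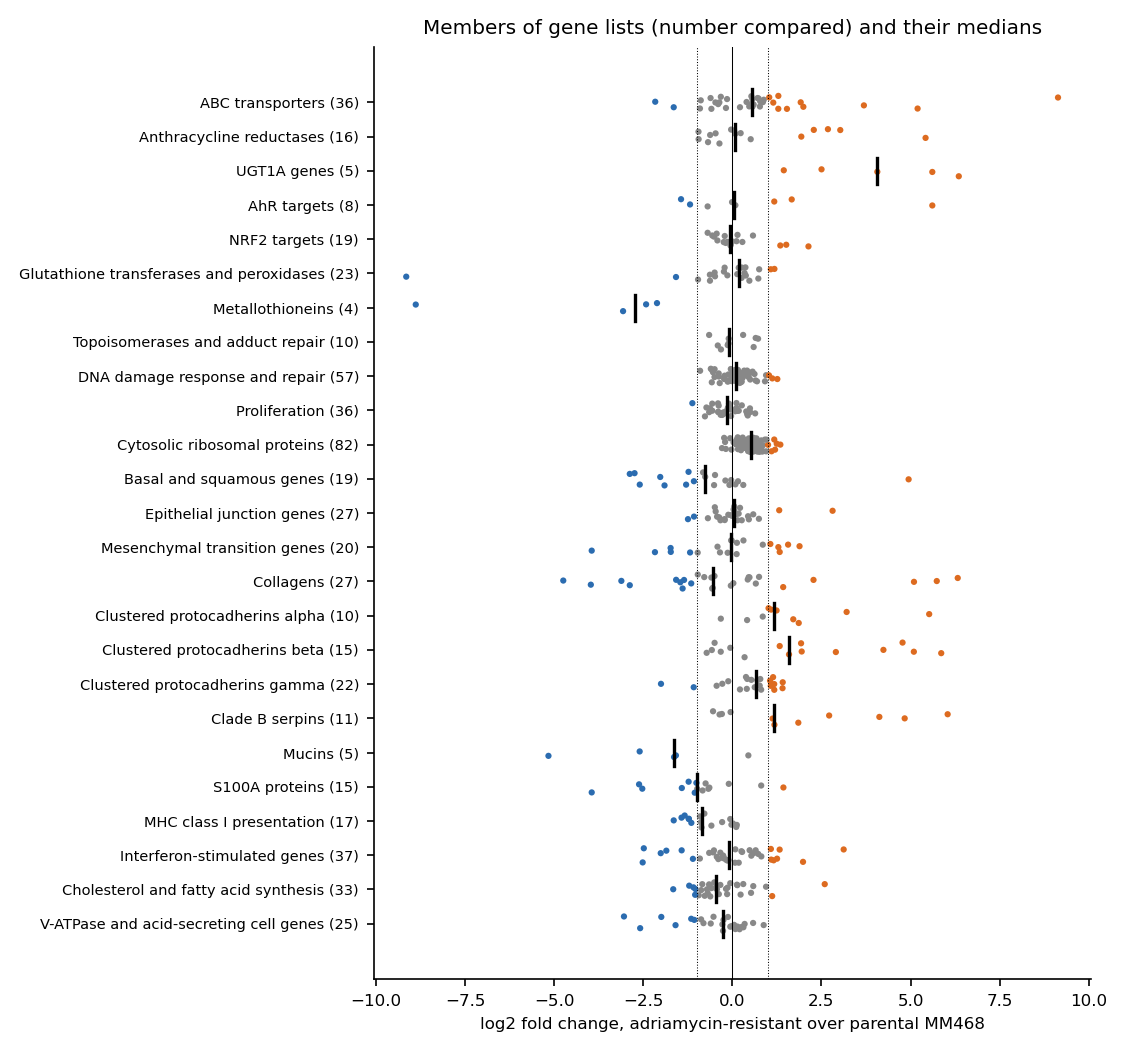
Each point is a compared member of a gene list (number compared in brackets), placed by its log2 fold change in adriamycin-resistant cells over parental MM468, with orange for at least 2-fold higher, blue for at least 2-fold lower, grey for within 2-fold, a black bar for the median and dotted lines at 2-fold. Genes with 0 counts in a library are drawn at their bound against 3 counts. The 4 metallothioneins lie to the left, 1 of them compared only for its parental counts. Of the 5 UGT1A genes on the right, 4 were compared only for their counts in the resistant library. Topoisomerases, DNA repair and proliferation genes crowd around 0.

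Cytokine receptors and ligands went in both directions. Of 32 cytokine, chemokine and NF-kB genes 8 were higher and 10 lower. CSF3R and IL1RL1 were among 4 of the 8 that reached the count minimum through the resistant library alone, and of the 27 genes that reached it in both libraries 4 were higher and 10 lower. CSF3R, the receptor of granulocyte colony-stimulating factor, had 7 counts in parental, 1418 in adriamycin-resistant cells and 48 in paclitaxel-resistant cells, 138-fold higher in adriamycin-resistant cells (66.6 to 343). The interleukin 1 decoy receptor IL1R2 had 14 and 589 (28.6-fold, 16.9 to 52.6), IL1RL1, the receptor of interleukin 33, had 4 and 117 (19.9-fold, 7.56 to 74.2), and IL6 had 36 and 302 (5.70-fold, 4.03 to 8.29). The lower members included growth factors and targets of NF-kB. LIF had 3175 and 1047 (4.46-fold lower, 4.16 to 4.79), CSF1 2035 and 725 (4.13-fold, 3.79 to 4.50) and TNFAIP2 3591 and 1592 (3.32-fold, 3.13 to 3.52). CD14, a pattern receptor, was 11.8-fold lower (9.53 to 14.8).

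MHC class I genes, which present peptides to T cells, leaned lower. Of 17 genes 6 were lower, none was higher and the median was -0.87. The heavy chains HLA-B (9678 and 5295 counts, 2.69-fold, 2.60 to 2.78) and HLA-C (2.33-fold, 2.26 to 2.40) were among them. All 6 lower members are among the 10 that lie on chromosome 6, whose genes had a median of -0.21, and none of the 7 elsewhere was lower. HLA genes are near copies of each other and vary between people, so their counts are uncertain. Interferon-stimulated genes were split, with 7 higher and 6 lower of 37, 2 of the higher on chromosome 17 and 2 of the lower on chromosome 1. Of the 36 that reached the count minimum in both libraries 7 were higher and 5 lower. IFITM2 had 51 and 655 counts (8.73-fold, 6.56 to 11.8), and ISG15, a ubiquitin-like modifier, 409 and 105 (5.73-fold lower, 4.62 to 7.17).

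Several subunits of the proton pump used by acid-secreting cells were lower. Of 25 V-ATPase and acid-secreting cell genes 6 were lower and none higher. ATP6V0D2 had 2738 counts in parental, 489 in adriamycin-resistant cells and 55 in paclitaxel-resistant cells, 8.24-fold lower in adriamycin-resistant cells (7.48 to 9.09). ATP6V0A4 was 6.01-fold lower (5.63 to 6.43) and ATP6V1B1 3.99-fold (3.82 to 4.16). These are the subunits known from kidney and inner ear. The factors TFCP2L1 (12463 and 6070 counts, 3.02-fold, 2.93 to 3.12) and FOXI1 (5887 and 4131, 2.10-fold, 2.02 to 2.18) were lower with them. The remaining lower member, ATP6V0B, is a common subunit and the member on chromosome 1.

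Several smaller families held large differences. MAGED1, an adaptor of the MAGE family, had 28 counts in parental, 1622 in adriamycin-resistant cells and 57 in paclitaxel-resistant cells, 39.4-fold higher in adriamycin-resistant cells (27.1 to 59.4), and XAGE2, a cancer-testis gene, had 0 and 147 (at least 33.3-fold). Of 12 such genes compared 6 were higher and none lower, 5 of the 6 having reached the count minimum through the resistant library alone. The small nuclear proteins of the TCEAL and BEX family had 3 higher and none lower of 6, but those 3 were compared only for their counts in the resistant library, and at a minimum of 100 counts the median passed from 1.14 to -0.31. TCEAL9 was at 0 counts in parental, 46 in adriamycin-resistant cells and 2072 in paclitaxel-resistant cells. Of 25 Hippo pathway genes 2 were higher and 2 lower, with 1 in each direction compared for its counts in 1 library alone. Apart from WWC2 and VGLL3, they held CCN2, a target that encodes a matrix protein, at 7076 and 2099 counts (4.96-fold lower, 4.73 to 5.21), and ANKRD1, another target, 2.05-fold higher (1.87 to 2.25). HOXB13, a homeobox factor of posterior tissue, had 5 and 115 counts (15.6-fold, 6.51 to 49.0). Of 27 HOX genes 4 were higher and 1 lower, with 3 of the 4 compared only for their counts in the resistant library. HSPB1, the small heat shock protein HSP27, had 4155 and 14024 (2.29-fold, 2.21 to 2.37), and of 30 heat shock and unfolded protein response genes 2 were higher and 1 lower. Of the 29 that reached the count minimum in both libraries 1 was higher and 1 lower. Tubulins, the targets of taxanes, were within 2-fold apart from TUBB4A (0 and 26 counts, at least 5.89-fold higher), 1 of 16. TUBB4A was compared only for its counts in the resistant library. Of 8 syndecans and glypicans 1 was higher and 2 lower, and of the 6 that reached the count minimum in both libraries none was higher and 1 lower. SDC2, compared only for its counts in the resistant library, had 0 counts in parental, 19 in adriamycin-resistant cells and 5101 in paclitaxel-resistant cells. Of 15 EGFR family members and ligands 3 were higher and 1 lower. The lower member and ERBB4 each reached the count minimum through 1 library alone, and of the 13 that reached it in both 2 were higher and none lower. ERBB4 had 0 counts in parental, 53 in adriamycin-resistant cells (at least 12-fold higher) and 523 in paclitaxel-resistant cells. Of 17 iron genes 2 were higher and 3 lower, and of the 14 that reached the count minimum in both libraries 1 and 1. CP, ceruloplasmin, was compared only for its parental counts. It stood at 32 counts in parental, 1 in adriamycin-resistant cells and 174 in paclitaxel-resistant cells, and the interval of its 47.1-fold lower value in adriamycin-resistant cells began at 7.87.

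The bulk of each library was made of the same kinds of RNA. The 10 most abundant genes held 8.41% of parental and 8.26% of adriamycin-resistant counts, and the 13 protein genes of the mitochondrial genome 6.57% and 6.70%. Genes of protein synthesis were among those that gained most in CPM. Cytosolic ribosomal protein genes had a median of 0.52, and 6 of 82 were at least 2-fold higher, 3 of them on chromosome 17, and none lower. Their summed CPM went from 32600 to 46200. RPL23 (2.54-fold, 2.48 to 2.60), RPL19 (2.37-fold, 2.33 to 2.41) and RPL27 (2.26-fold, 2.19 to 2.33) led, and these 3 are on chromosome 17. EEF1A1, the elongation factor that brings tRNA to the ribosome, had 218978 and 422753 counts (1.31-fold), and RACK1, a ribosomal scaffold, 46710 and 131494 (1.91-fold). PEG10, a retrotransposon-derived gene, was 2.12-fold higher (2.09 to 2.15), with 23644 counts in parental, 73722 in adriamycin-resistant cells and 108151 in paclitaxel-resistant cells. Large losses in CPM past 2-fold were in APP, the amyloid precursor (2.72-fold lower, 2.68 to 2.76), MGP, and CD44, the hyaluronan receptor (54520 and 30752 counts, 2.61-fold, 2.57 to 2.65). The lists of ribosomal, elongation factor, glycolysis and mitochondrial genes were added after the values were seen.

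Differences were not spread evenly over the genome. Of the genes compared, 13043 had 100 or more counts in 1 library and a RefSeq position, and of these 6.13% were higher by 2-fold or more and 7.94% lower. Chromosomes 1 and 22 had the lowest medians. The 1324 genes of chromosome 1 had a median log2 fold change of -0.52 with quartiles at -1 and -0.05, and 77.6% of them were below 0. It held 333 lower genes, 25.2% of its genes, and 21 higher ones. This was 32.2% of all 1035 lower genes, on a chromosome with 10.2% of the placed genes. Chromosomes 14 and 17 were high. The median was 0.51 for 433 genes of chromosome 14 and 0.39 for 816 genes of chromosome 17, and together they held 188 of the 800 higher genes (23.5%) and 9.58% of the placed genes. Chromosome 22 had a median of -0.49, with 80.3% of its 325 genes below 0 and 46 lower genes, and chromosomes 18 and 21 stood at -0.33 and -0.32. The 10470 genes off chromosomes 1, 14 and 17 had a median of 0.02. In paclitaxel-resistant cells, set against the same parental library, the medians were -0.35 for chromosome 1, 0.13 for chromosome 14, 0.05 for chromosome 17 and -0.58 for chromosome 22, and the lowest was that of chromosome 10 at -0.85, which stood at 0.10 in adriamycin-resistant cells. DNA copy number was not measured here, and its part in these differences was not tested.

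**Figure D4:**
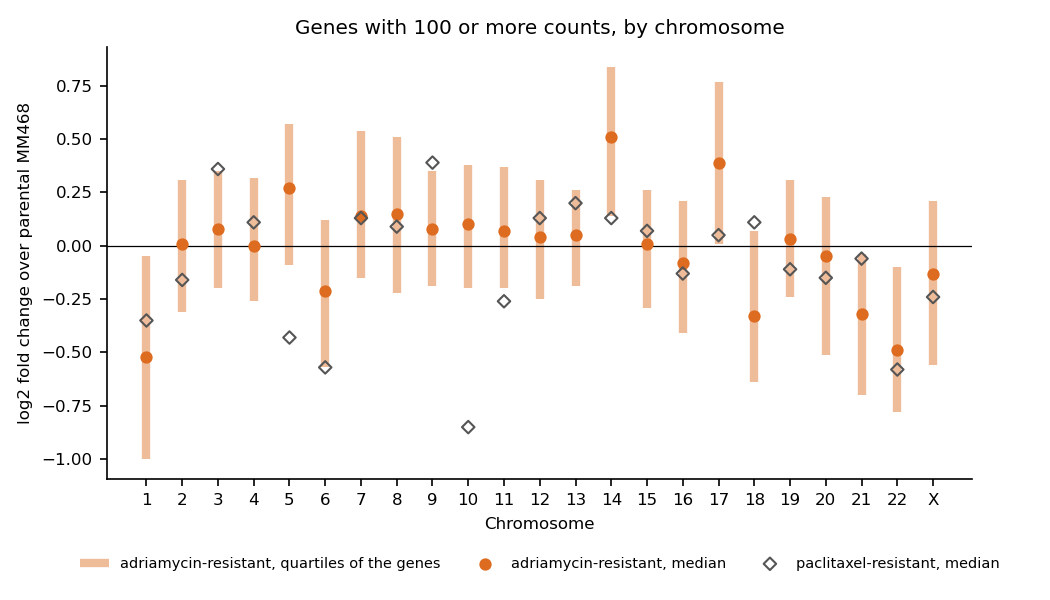
Median log2 fold change over parental MM468 for genes with 100 or more counts on each chromosome, with orange points and bars for the median and quartiles over genes in adriamycin-resistant cells and open diamonds for the median in paclitaxel-resistant cells, which shares the parental library. Chromosome 1 lies at -0.52 and chromosomes 14 and 17 at 0.51 and 0.39 in adriamycin-resistant cells.

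Within these chromosomes the differences came in long blocks. In windows of 10 Mb with 20 or more genes, 21 of the 22 windows of chromosome 1 had a median below 0, and 11 of the 20 windows genome-wide at -0.5 or lower were there. From 30 to 70 Mb its medians were -1.06, -0.92, -0.97 and -1.06, and from 80 to 120 Mb they lay between -1.04 and -0.88. In the window from 30 to 40 Mb, 48 of 90 genes were at least 2-fold lower. The ends of the chromosome were close to level, with -0.04 for the first 10 Mb and -0.07 for 240 to 250 Mb. On chromosome 17 the medians were 0.12, 0.10 and 0.11 up to 30 Mb, 0.85, 0.62, 0.67 and 0.65 from 30 to 70 Mb, and 0.18 and 0.07 beyond. In the window from 30 to 40 Mb, 31 of its 93 genes were at least 2-fold higher. On chromosome 14 the windows from 20 to 40 Mb were at 0.10 and -0.04, and those from 50 Mb on lay between 0.48 and 0.66. A running median over 31 neighbouring genes fell as low as -1.54 on chromosome 1 and reached 0.95 on chromosome 14 and 1.03 on chromosome 17.

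**Figure D5:**
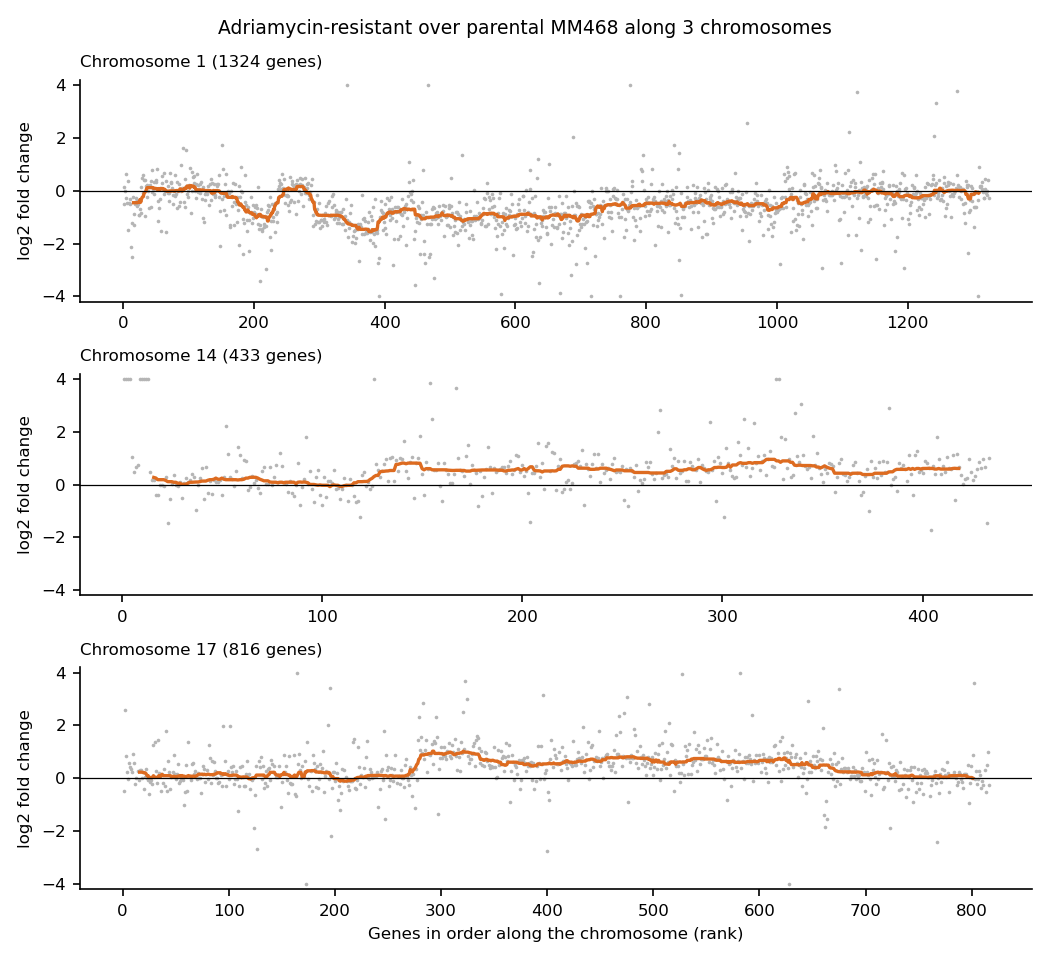
log2 fold change of adriamycin-resistant cells over parental MM468 for genes with 100 or more counts, in their order along chromosomes 1, 14 and 17 (x axis, rank), with grey points for single genes (drawn at 4 or -4 where they go beyond) and an orange line for the running median over 31 genes. The line stays near -1 over a long stretch of chromosome 1, and steps up on chromosomes 14 and 17 and, on chromosome 17, back down.

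At the very start of chromosome 14, ahead of TTC5, 13 genes with 100 or more counts formed a group of their own, picked out after its values were seen. Of these, 8 had 0 counts in parental cells, between 147 and 402 in adriamycin-resistant cells and between 51 and 343 in paclitaxel-resistant cells. POTEM, the only protein-coding gene among the 13, had 0, 279 and 204 counts, at least 63.2-fold higher in adriamycin-resistant cells. The pseudogenes NF1P11 (0, 402 and 115 counts) and NF1P7 (0, 339 and 343) were alike. These are members of families with near-identical copies near several centromeres, so the copy that gave the reads is uncertain. The neighbouring DUXAP9 had 1496 and 4511 counts (log2 fold change 1.03).

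Genes that differed had promoters with fewer CG pairs. RefSeq windows of 250 bases ahead of the start were found for 12946 of the 17950 genes compared. The median number of CG pairs was 20 over all of them, 13 for the 1211 matched higher genes and 15 for the 1422 lower genes. It was 7.5 for 302 genes with 0 counts in parental and 4.5 for 120 genes with 0 counts in adriamycin-resistant cells. The letters GCGTG, on either strand, were in 43.3% of all windows, 33.9% of higher, 35.3% of lower, 29.1% of the genes at 0 in parental and 22.5% of those at 0 in adriamycin-resistant cells. The TATA box letters TATAAA, on the sense strand only, an exception to the search of both strands, was in 3.92% of all windows, 6.77% of higher and 7.17% of lower ones. GCGTG itself holds a CG pair, so the first 2 measures are not separate. Genes with low counts pass 2-fold more often, and their part in these shares was not tested.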

How the data were processed

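Each of the 3 lines (adriamycin-resistant, paclitaxel-resistant and their parent) gave 1 RNA-seq library (TruSeq Stranded mRNA kit, Macrogen), and samples were grouped by their labels. The submitters' notes name Trimmomatic 0.39, HISAT2 2.2.1, StringTie 2.2.1 and GRCh38. The annotation release and the use of strand in counting are not given in the sources used here, so overlapping and antisense genes may share reads. The authors deposited whole-number read counts per gene, not normalized, and beside them FPKM and TPM values that they had computed.

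Parental and adriamycin-resistant counts were compared with edgeR 4.0.16 (R 4.3.3). Genes with 10 or more counts in 1 of the 2 libraries were kept, TMM factors (0.994 and 1.01) were computed, and log2 fold changes used a prior count of 0.125. No quasi-likelihood test was possible, as 1 library per line leaves no residual degrees of freedom. Genes at least 2-fold apart were counted instead. Intervals (95%, Clopper-Pearson, scipy 1.17.1) and the floor of 3 counts cover counting error only. On simulated libraries of 17607 genes with counting error alone, 1.97% of the unchanged genes came out past 2-fold. Their levels were the mean of the parental and adriamycin-resistant libraries, and no variation between cultures was added. This share therefore does not say how many of the observed differences would repeat.

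The genes named are ABCB1, ABCC11, NNMT and TP63, the 15 furthest up and 15 furthest down by the interval end nearest to no change (protein-coding, 100 or more counts), the 10 largest gains and losses in CPM, and members of 50 gene lists (at most 6 a direction, and defining members). The 4 lists added later, genes beside named genes, and others marked as such were chosen after their values were seen. The members and lists were chosen with earlier results of these data known, so list counts are descriptions and are read against all genes compared. RefSeq positions and promoter windows (GRCh38.p14) were matched by NCBI Gene ID and symbol, and 17645 of the genes compared had an ID there. The settings varied were the scaling (size factors of DESeq2 1.42.0, or library size), the prior count, the count minimum, the fold threshold, and the use of the FPKM or TPM values with a pseudocount. Some genes that the rule would name are not reported here.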

Additional observations from a re-analysis of the deposited data

Results flagged for a closer look

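Of 327 genes looked at, 11 had whole counting intervals past 2-fold in opposite directions in adriamycin-resistant cells and paclitaxel-resistant cells. The difference between the lines was not tested, since each is 1 library, and both are compared with the same parental library. Higher in adriamycin-resistant cells and lower in paclitaxel-resistant cells were AKR1B10 (log2 fold changes of 3.03 and -1.97), the interferon-induced XAF1 (1.98 and -2.38) and BST2 (1.33 and -1.98), the keratin KRT81 (1.49 and -2.26), the interleukin 1 receptor antagonist IL1RN (1.35 and -3.06) and the heat shock protein HSPB1 (1.20 and -1.56). In adriamycin-resistant cells XAF1 rests on 140 counts and in paclitaxel-resistant cells on 7. Lower in adriamycin-resistant cells and higher in paclitaxel-resistant cells were CYP1A1 (-1.19 and 1.26), DSC3 (-1.90 and 1.53), COL8A1 (-4.75 and 1.39), CP (-5.36 and 1.81) and VGLL3. VGLL3 had 0 counts in adriamycin-resistant cells, so its value of -6.59 is a bound against 3 counts, and in paclitaxel-resistant cells it was 3.11.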

How the results depend on the processing

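The counts of genes past 2-fold depend on the low end of the table. Against 1963 higher and 2044 lower genes, no count minimum gave 4337 and 3751, a minimum of 100 counts 800 and 1048, and a 4-fold threshold 875 and 714. Whole intervals past 2-fold, or bounds for genes with 0 counts in a library, gave 1131 and 1199. TPM with a pseudocount of 1 gave 707 and 1085 and FPKM with a pseudocount of 1 gave 460 and 663, both of which shrink the folds of low genes. DESeq2 size factors gave 1950 and 2063 and library size alone 1997 and 2000. The log2 fold change of ABCB1, 9.14, became 6.01 with TPM and 4.92 with FPKM at a pseudocount of 1. Medians of 8 lists changed sign. In 5 of them (drug uptake carriers, junction genes, keratins, interferon-stimulated genes and tubulins) the median was near 0, from -0.11 to 0.03, and ran from -0.38 to 0.17 where it changed. The other 3 had medians past 2-fold, which passed for clade B serpins to -0.06 and for TCEAL and BEX genes (from 1.14) to -0.31 at a minimum of 100 counts, and for fibroblast markers (from -1.73) to 0.78 with no minimum, because other members then entered or left. Of 432 list medians under alternatives, 418 stayed inside the 95% order-statistic range of the members. The medians of chromosomes 1, 14, 17 and 22 kept their signs under DESeq2 size factors, library size alone, a minimum of 1000 counts and TPM, settings added after the data were seen, and with TPM and a pseudocount of 1 those of chromosomes 14 and 17 were 0.43 and 0.32. No paired analysis was possible because each line has 1 library, and no library could be left out. Depth limits genes under 100 counts most.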
